A study of Mus musculus with 35 samples.

Results

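The transcription factors of medium spiny neurons, the projection neurons that make up most of the striatum, were followed in the striatal RNAseq of *Htt Q111/+* and *Htt+/+* mice. The 10 genes are *Bcl11b*, *Ikzf1*, *Foxp1*, *Foxp2*, *Foxo1*, *Rarb*, *Rxrg*, *Isl1*, *Meis2* and *Ebf1*. They were chosen by name, with earlier results of these data known. They are 10 of the 22099 genes listed, and all 10 passed the filter on low counts. At 10 months of age, 6 of the 10 were lower and 2 were higher in *Htt Q111/+* than in *Htt+/+* striatum, and none was called in any comparison between treatments. Of all 17639 genes tested, 39.8% were called by genotype, and at most 1.47% in any comparison between treatments.

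The 35 mice were female, on a C57BL/6J background, and 299 to 304 days old. *Htt Q111/+* mice carry 1 mutant huntingtin allele with an expanded CAG tract at the mouse's own locus, so the mutation is present in every cell type, and *Htt+/+* mice were their wild-type littermates. Within each genotype, mice had received weekly intraperitoneal injections of saline at 4 µL/g, of a control antisense oligonucleotide (control ASO) with no match in the mouse genome at 50 mg/kg, or of an ASO against mouse *Htt* (*Htt* ASO) at 50 mg/kg, from 2 to 10 months of age. There were 6 mice in each group except the *Htt+/+* mice on control ASO, of which there were 5. The ASOs were given outside the brain, and *Htt* transcript in the striatum of *Htt+/+* mice ran from 66.6 to 104 CPM on *Htt* ASO and from 77.6 to 101 CPM on control ASO. In *Htt Q111/+* mice it ran from 60.9 to 83.6 CPM and from 65.3 to 88.1 CPM, so the treatments overlapped and were not called (limma after voom, log2 difference −0.077 over both genotypes, adjusted p = 0.967). CPM are counts scaled to the library size after TMM. Each mouse gave 1 library of 32200158 to 38641924 estimated reads from the right hemistriatum, except for 1 *Htt+/+* mouse on *Htt* ASO whose sample was labelled left. The marker genes of projection neurons were abundant in every library, and all 10 of those listed were detected, which fits the labelled tissue.

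Most of these factors are best known from development, when medium spiny neurons arise in the lateral ganglionic eminence and divide into the direct pathway, with dopamine D1 receptors, and the indirect pathway, with D2 receptors and enkephalin. Several stay on in adult neurons, where *Bcl11b* and *Foxp1* serve as markers of the cell type. A retinoic acid receptor (*Rarb*) and a partner receptor (*Rxrg*) are also richer there than in most of the brain. Retinoic acid receptors bind DNA as pairs of a RAR and an RXR, usually at direct repeats of a short motif.

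The upstream sequences of the members were read from RefSeq promoter windows on GRCm38.p6, 250 bases up to the start of transcription, with 14 windows for 9 members and none for *Foxp2*. *Rarb* is shown first because its window holds such a repeat, GTTCA repeated after 6 other bases. The repeat with its spacer is in capitals, with 7 bases on either side (chr14:16575506-16575535, minus strand). *Foxo1*, *Rxrg* (the first of its windows) and *Isl1* follow as the members with the smallest adjusted p, the largest decrease and the largest increase by genotype (chr3:52268087-52268336, plus strand; chr1:167598112-167598361, plus strand; chr13:116309689-116309938, minus strand). Capitals in *Foxo1* mark the matches described after the sequences.
Rarb: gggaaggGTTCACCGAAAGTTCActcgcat
Foxo1: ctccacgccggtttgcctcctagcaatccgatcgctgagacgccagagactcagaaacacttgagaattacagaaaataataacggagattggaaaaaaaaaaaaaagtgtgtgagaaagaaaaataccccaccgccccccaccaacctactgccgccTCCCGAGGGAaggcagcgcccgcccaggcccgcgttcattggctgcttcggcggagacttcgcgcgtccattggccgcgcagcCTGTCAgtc
Rxrg: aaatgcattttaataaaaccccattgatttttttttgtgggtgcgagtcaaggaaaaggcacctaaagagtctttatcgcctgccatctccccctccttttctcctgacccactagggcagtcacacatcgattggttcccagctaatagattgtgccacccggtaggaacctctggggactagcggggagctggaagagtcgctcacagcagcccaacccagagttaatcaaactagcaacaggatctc
Isl1: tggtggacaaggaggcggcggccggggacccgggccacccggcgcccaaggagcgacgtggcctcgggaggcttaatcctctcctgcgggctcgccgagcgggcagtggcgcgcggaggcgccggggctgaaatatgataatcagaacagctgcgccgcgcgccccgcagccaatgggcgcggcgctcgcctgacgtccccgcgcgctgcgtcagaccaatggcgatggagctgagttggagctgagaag
Both strands were searched for 4 motifs of the members' own families. The direct repeat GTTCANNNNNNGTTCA, whose spacing was set with the *Rarb* window in view, was found in 22 of 32851 windows of all genes (0.067%) and, among the members, at −52 to −37 of *Rarb* only. The EBF motif TCCCNNGGGA, in 0.779% of all windows, stood at −92 to −83 of *Foxo1*, and the MEIS motif TGACAG, in 15.9% of all windows, at −9 to −4 of *Foxo1* and in 1 of the 3 windows of *Foxp1*, in both from the minus strand of the gene. The forkhead motif TGTTTAC was in 3.17% of all windows and in 0 of the 14 member windows. The *Isl1* window was 71.2% G and C with 33 CG pairs, that of *Foxo1* 56.0% with 20, and that of *Rxrg* 49.2% with 6, beside a median of 52.4% and 6 over all windows. These are matches of letters, and no binding was measured.

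The genes lie on chromosomes 1 (*Rxrg*), 2 (*Meis2*), 3 (*Foxo1*), 6 (*Foxp1* and *Foxp2*), 11 (*Ikzf1* and *Ebf1*), 12 (*Bcl11b*), 13 (*Isl1*) and 14 (*Rarb*), by GENCODE M21 on GRCm38. To set the members in order of level, CPM were divided by the length of all annotated exons in kb. In *Htt+/+* mice, *Rxrg* came first with 63.2 ± 5.90 CPM per kb (SD, n = 17), followed by *Bcl11b* with 39.1 ± 2.04, *Rarb* with 29.0 ± 1.47, *Meis2* with 18.9 ± 1.13, *Foxo1* with 17.7 ± 0.887, *Foxp1* with 7.71 ± 0.564, *Foxp2* with 5.74 ± 0.299, *Isl1* with 3.77 ± 0.199, *Ikzf1* with 1.88 ± 0.169 and *Ebf1* with 1.05 ± 0.0799. The order was the same in *Htt Q111/+* mice, from 46.7 ± 3.68 CPM per kb for *Rxrg* to 1.09 ± 0.0847 for *Ebf1* (SD, n = 18). Between neighbours in this order, the ranges over mice overlapped for *Meis2* with *Foxo1* and for *Foxp1* with *Foxp2* in both genotypes, and for no other pair of neighbours. Lengths came from another annotation than the counts, so the order is approximate. The place of *Meis2* rests on its own row, 227 CPM on average in *Htt+/+* mice. With a second row listed as *Mrg1*, described below, the sum was 468 CPM, which would place *Meis2* higher and change its neighbours. Whether the reads of that second row belong to *Meis2* was not tested.

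**Figure D1:**
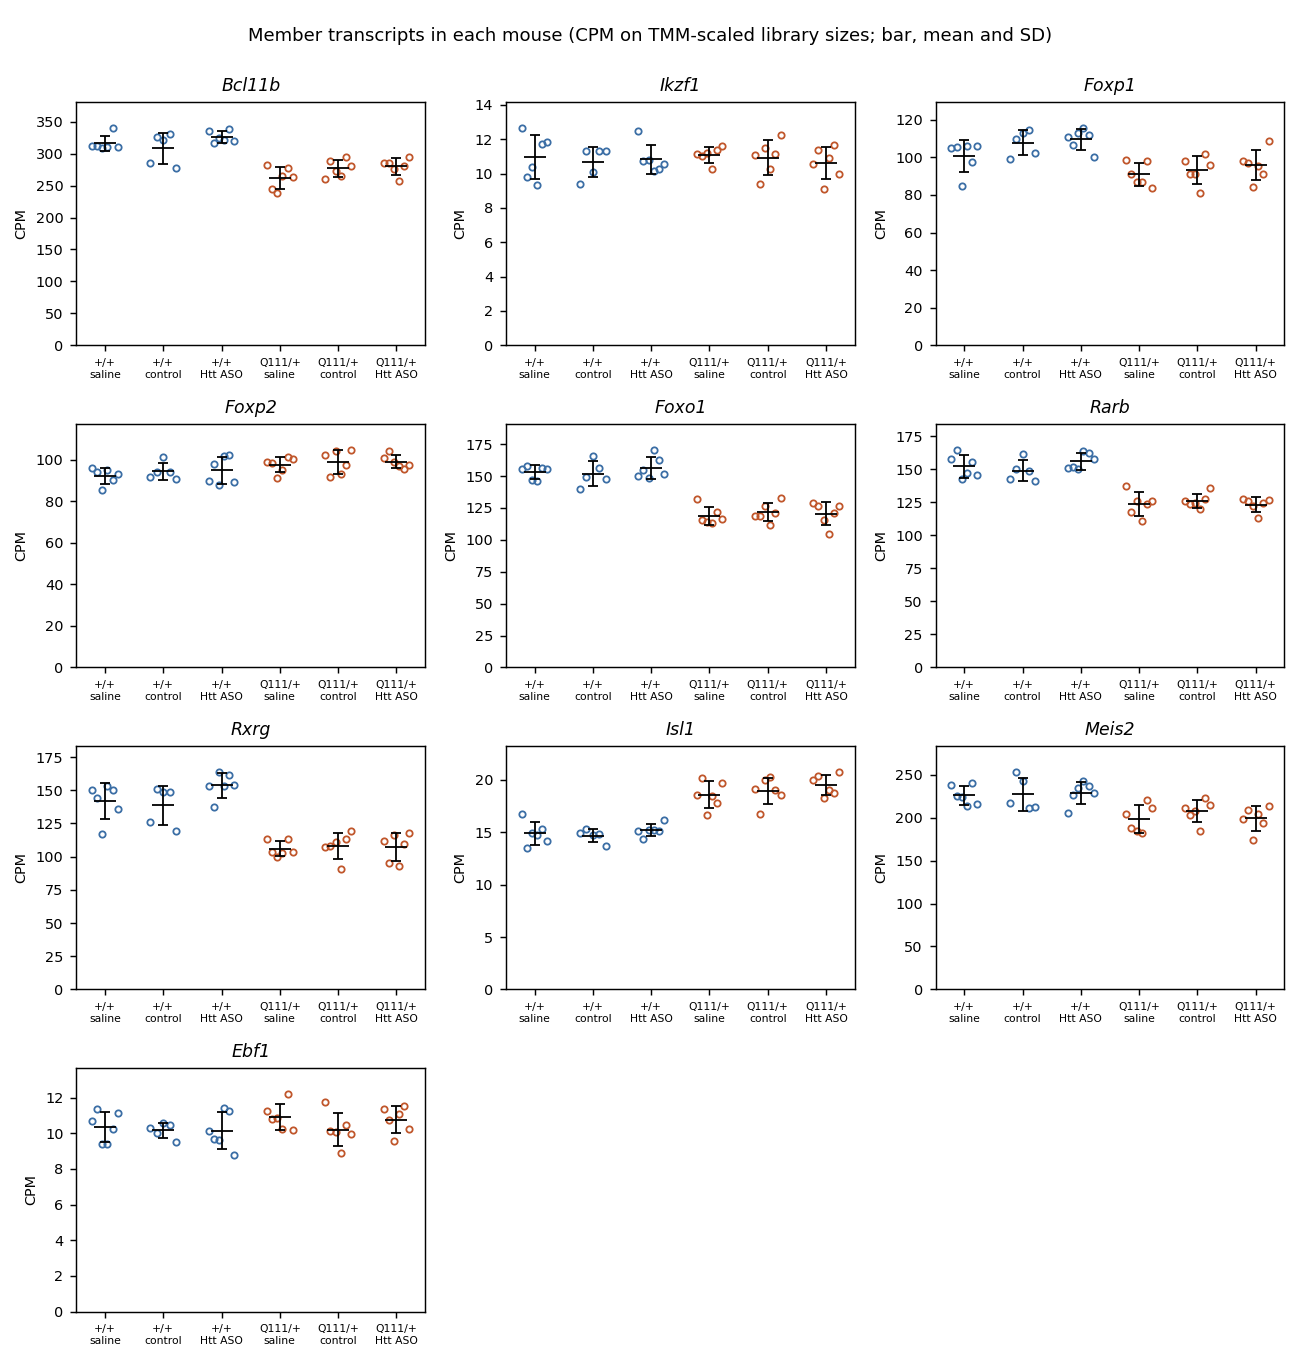
CPM on TMM-scaled library sizes (vertical axes, from 0) of each of the 10 genes in each of the 35 mice, as open points by group, with a bar for the mean and its SD (n = 6, or 5 for *Htt+/+* on control ASO). *Foxo1* and *Rarb* form separate bands, with every *Htt Q111/+* mouse at most 133 CPM for *Foxo1* and 137 CPM for *Rarb* and every *Htt+/+* mouse at least 140 and 141 CPM, whereas the *Ebf1* and *Ikzf1* points of both genotypes cover nearly the same range. How many of all genes separate in this way was not counted.

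The first question is whether the mutant allele changed these transcripts. Averaged over treatments, 8 of the 10 members passed the threshold (limma after voom, adjusted p under 0.05), 6 lower and 2 higher in *Htt Q111/+* mice, against 39.8% of all 17639 genes tested. The median log2 fold change of the members was −0.18, and that of all genes was 0.0037. Because the members were chosen with earlier results of these data known, these values only describe them. In bulk tissue, fewer cells of a type and less RNA per cell cannot be told apart.

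*Rxrg*, an RXR subtype that can pair with RARs, fell the most of the members. It ran from 117 to 164 CPM with a median of 150 in the 17 *Htt+/+* mice, and from 90.5 to 119 CPM with a median of 109 in the 18 *Htt Q111/+* mice. The groups overlapped narrowly, with 16 of the 18 *Htt Q111/+* mice below the lowest *Htt+/+* mouse. The log2 fold change was −0.43 (95% interval −0.52 to −0.35, adjusted p = 2e-10 by limma after voom), or 74.2% of the *Htt+/+* level.

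*Rarb*, the retinoic acid receptor, did not overlap between genotypes. Its range was 141 to 165 CPM with a median of 151 in *Htt+/+* mice. In *Htt Q111/+* mice it had a median of 125 CPM and was at most 137 CPM. By genotype this made a log2 fold change of −0.29 (95% interval −0.34 to −0.24, adjusted p = 1.28e-11). By p from limma after voom, *Rarb* ranked 288 of the 17639 tested genes. How many of all genes had no overlap between genotypes was not counted, so the lack of overlap is not shown to be particular to *Rarb*. The log2 ratio of *Rarb* to *Rxrg* within a mouse was 0.0771 ± 0.108 (SD, n = 17) in *Htt+/+* and 0.217 ± 0.0967 (SD, n = 18) in *Htt Q111/+* mice, with overlapping ranges.

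*Foxo1*, a forkhead factor held out of the nucleus by insulin and Akt signalling, had the smallest adjusted p of the members. Its values were 140 to 170 CPM with a median of 155 in *Htt+/+* mice, and 104 to 133 CPM with a median of 120 in *Htt Q111/+* mice. No *Htt Q111/+* mouse reached the lowest *Htt+/+* mouse, and the log2 fold change was −0.35 (95% interval −0.41 to −0.30, adjusted p = 2.98e-12). *Foxo1* ranked 217 of the 17639 tested genes by p, and here too the share of all genes without overlap was not counted.

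*Foxp1*, the forkhead factor of both projection pathways, ran from 84.7 to 116 CPM with a median of 106 in *Htt+/+* mice, and from 80.9 to 108 CPM with a median of 93.4 in *Htt Q111/+* mice. The genotypes overlapped widely, although 17 of 18 *Htt Q111/+* mice lay below the *Htt+/+* median. Its log2 fold change was −0.19 (95% interval −0.26 to −0.11, adjusted p = 5.21e-05).

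*Foxp2*, its close relative whose human counterpart is mutated in an inherited speech disorder, went the other way. It ran from 85.4 to 102 CPM with a median of 94.0 in *Htt+/+* mice, and from 91.4 to 105 CPM with a median of 98.7 in *Htt Q111/+* mice, so most of both ranges was shared. Its log2 fold change of 0.070 (95% interval 0.022 to 0.12, adjusted p = 0.0173) was the smallest of the 8 called. The log2 ratio of *Foxp2* to *Foxp1* within a mouse, which does not depend on library scaling, was −0.173 ± 0.0854 (SD, n = 17) in *Htt+/+* and 0.0812 ± 0.103 (SD, n = 18) in *Htt Q111/+* mice, with ranges that overlapped.

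*Bcl11b*, a zinc finger factor needed for medium spiny neurons to mature, ran from 278 to 340 CPM with a median of 319 in *Htt+/+* mice. In *Htt Q111/+* mice it ran from 238 to 295 CPM with a median of 277. All 18 *Htt Q111/+* mice lay below the *Htt+/+* median, and 10 of them below the lowest *Htt+/+* mouse. *Bcl11b* thus gave a log2 fold change of −0.21 (95% interval −0.27 to −0.16, adjusted p = 2.25e-08).

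*Meis2*, a homeodomain factor of the lateral ganglionic eminence, ran from 205 to 253 CPM with a median of 226 in *Htt+/+* mice, and from 174 to 222 CPM with a median of 204 in *Htt Q111/+* mice. All 18 *Htt Q111/+* mice lay below the *Htt+/+* median. For *Meis2* the log2 fold change was −0.18 (95% interval −0.24 to −0.11, adjusted p = 3.67e-05). The table also lists a row under *Mrg1*, an older symbol that *Meis2* shares with *Cited2*, which has a row of its own. Reads of the *Mrg1* row came to 240 ± 15.3 CPM in wild-type and 198 ± 10.2 CPM in mutant striatum (SD over 17 and 18 mice), a log2 fold change of −0.28 (adjusted p = 6.21e-10). *Meis2* held 43.4% to 53.1% of the sum of both rows over the mice. With both rows summed, the log2 fold change was −0.23 (adjusted p = 3.07e-11). Whether the reads of the *Mrg1* row come from *Meis2* was not tested.

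*Isl1* was the exception among the strongly changed members. This LIM homeodomain factor guides direct pathway neurons in development and marks cholinergic interneurons in the adult. It ran from 13.5 to 16.7 CPM with a median of 14.9 in *Htt+/+* mice, and from 16.7 to 20.7 CPM with a median of 19 in *Htt Q111/+* mice. The genotypes met only at the edge of their ranges, with 16 of 18 *Htt Q111/+* mice above the highest *Htt+/+* mouse. *Isl1* thus gave a log2 fold change of 0.35 (95% interval 0.29 to 0.41, adjusted p = 1.27e-11), or 127% of the *Htt+/+* level. Within a mouse, the log2 ratio of *Isl1* to *Rxrg* was −3.43 to −2.97 in *Htt+/+* and −2.69 to −2.16 in *Htt Q111/+* mice, without overlap. That of *Isl1* to *Foxo1* was −3.55 to −3.22 and −2.84 to −2.46, also without overlap. Each ratio sets a member that rose over a member that fell, so it restates those changes and adds no separate result. The share of all gene pairs without overlap was not counted.

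*Ebf1* and *Ikzf1* did not pass the threshold. *Ebf1*, which acts in the differentiation of direct pathway neurons and of B cells, ran from 8.77 to 11.4 CPM with a median of 10.2 in *Htt+/+* mice and from 8.87 to 12.2 CPM with a median of 10.6 in *Htt Q111/+* mice, nearly the same range (log2 0.053, 95% interval −0.025 to 0.13, adjusted p = 0.29). *Ikzf1*, or Ikaros, known from lymphocytes and from the formation of enkephalin neurons, ran from 9.34 to 12.7 CPM with a median of 10.8 in *Htt+/+* mice and from 9.13 to 12.2 CPM with a median of 11.1 in *Htt Q111/+* mice (log2 0.013, 95% interval −0.073 to 0.098, adjusted p = 0.841). Both intervals end short of the size of the log2 estimates for *Rxrg*, *Foxo1*, *Isl1*, *Rarb*, *Bcl11b*, *Foxp1* and *Meis2*.

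The number after L in the sample titles was read as the sequencing lane, which neither the labels nor the methods state. Lanes so read were not balanced: 5 of the 6 held both genotypes, and lane 7 held only *Htt Q111/+* mice. Within the 5 lanes, the mean log2 CPM of *Rxrg*, *Rarb*, *Foxo1*, *Bcl11b*, *Foxp1* and *Meis2* was lower in *Htt Q111/+* mice in 5 of 5, and that of *Isl1* and *Foxp2* was higher in 5 of 5. The within-lane differences ran from −0.52 to −0.32 for *Rxrg*, from −0.31 to −0.24 for *Rarb*, from −0.42 to −0.27 for *Foxo1* and from 0.26 to 0.42 for *Isl1*. Those of the weaker members came nearer to 0 in lane 4, at −0.011 for *Foxp1* and −0.022 for *Meis2*. *Ebf1* was higher in 4 lanes and lower in 1, and *Ikzf1* higher in 3 and lower in 2. Under library totals without TMM, the share of higher genes among all called was 72.1% in place of 54.7%, and the members still split into 2 higher and 6 lower.

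The genotype was then compared within each treatment, where the comparisons do not share mice. In saline mice, 6 of 10 members were called (17.4% of all genes), 5 lower and 1 higher. In control ASO mice, 6 were called (18.5% of all genes), again 5 lower and 1 higher. In *Htt* ASO mice, 7 were called (21.2% of all genes), 6 lower and 1 higher. *Rxrg*, *Rarb*, *Foxo1*, *Bcl11b* and *Isl1* were called in all 3 treatments.

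The log2 fold change of *Rxrg* was −0.42 in saline, −0.36 in control ASO and −0.52 in *Htt* ASO mice. *Foxo1* gave −0.37, −0.32 and −0.38, and *Rarb* gave −0.30, −0.24 and −0.34, in the same order. *Isl1* gave 0.32, 0.37 and 0.36. *Bcl11b* gave −0.27, −0.15 and −0.22, and in control ASO mice its call (adjusted p = 0.0169) was lost without the *Htt+/+* control ASO mouse 2 (adjusted p = 0.061), 3 (0.0531) or 4 (0.0622), and with only the 2 groups in the fit (0.0639). So the 4 most changed members held their calls, whereas that of *Bcl11b* in control ASO mice turned on single mice.

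*Foxp1* gave −0.15 in saline (adjusted p = 0.0891), −0.21 in control ASO (adjusted p = 0.015) and −0.20 in *Htt* ASO mice (adjusted p = 0.0141). It was called in saline mice without *Htt+/+* saline mouse 3 (log2 −0.20, adjusted p = 0.0134), which had the lowest *Foxp1* of its genotype at 84.7 CPM, and with quality weights (log2 −0.16, adjusted p = 0.0435). Its call was lost in control ASO mice without *Htt Q111/+* mouse 4 (adjusted p = 0.0559) or without lane 7 (adjusted p = 0.0608), and in *Htt* ASO mice without *Htt Q111/+* mouse 3 (adjusted p = 0.0523) or under library totals (log2 −0.14, adjusted p = 0.0566). *Meis2* gave −0.19 in saline (adjusted p = 0.0123), −0.13 in control ASO (adjusted p = 0.111) and −0.20 in *Htt* ASO mice (adjusted p = 0.00621). The saline call of *Meis2* was lost with lane as a covariate (adjusted p = 0.0573) and without lane 7 (adjusted p = 0.193). *Foxp2* was at 0.081, 0.066 and 0.064, and was not called in any treatment alone with TMM and no covariate. It was called in saline mice under library totals (log2 0.12, adjusted p = 0.0291), and in *Htt* ASO mice under library totals (log2 0.12, adjusted p = 0.024) and with lane as a covariate (log2 0.11, adjusted p = 0.0443). A call in one treatment and not in another does not show that the effects differ. The difference of the genotype effect between *Htt* ASO and control ASO was tested, and 0 of 10 members and 0% of all genes passed (limma after voom, smallest member adjusted p = 0.999).

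**Figure D2:**
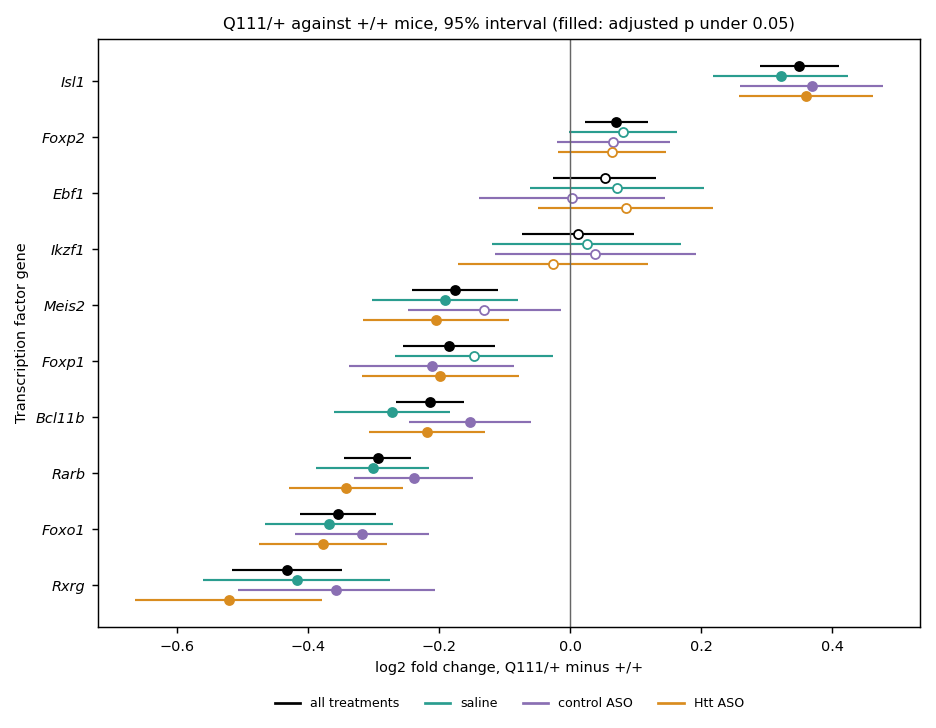
Log2 fold change of *Htt Q111/+* against *Htt+/+* mice (horizontal axis) for each gene (rows, from the largest increase to the largest decrease), with the 95% interval, over all treatments (black) and within saline, control ASO and *Htt* ASO mice (colours); filled points had an adjusted p under 0.05 by limma after voom. *Isl1* lies right of 0 at 0.32 to 0.37 and *Rxrg*, *Foxo1*, *Rarb* and *Bcl11b* lie left of 0 under each treatment, while the intervals of *Ebf1* and *Ikzf1* cross 0 throughout.

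Other genes of the same families and pathways were examined next, from lists of known family and pathway members. These lists, too, were chosen with earlier results of these data known. Of 16 tested family relatives, 4 rose and 2 fell, a share near the 39.8% called among all genes, and the median log2 fold change was 0.012. Under library totals 6 rose and 1 fell, with a median of 0.051. The relatives that rose were *Foxp4* at 0.33 (9.92 ± 1.13 against 12.4 ± 1.14 CPM), *Bcl11a* at 0.25 (48.6 ± 2.02 against 57.9 ± 2.32), *Meis1* at 0.17 (14.5 ± 0.830 against 16.3 ± 1.16) and *Ikzf5* at 0.092 (31.2 ± 1.03 against 33.3 ± 1.59), with SDs over 17 *Htt+/+* and 18 *Htt Q111/+* mice. The 2 that fell, named after their values were seen, were *Ikzf3* at −0.39, from 0.728 ± 0.197 to 0.543 ± 0.140 CPM, and *Rxra* at −0.083, whose call was lost under library totals (adjusted p = 0.107). The other retinoid receptors, named because they share the roles of *Rarb* and *Rxrg*, were *Rara* (0.16, adjusted p = 0.0608), *Rarg* (−0.034, adjusted p = 0.618) and *Rxrb* (−0.061, adjusted p = 0.0551). None of these 3 was called, but *Rara* was called under library totals (adjusted p = 0.016).

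Of the 15 tested genes of the retinoid pathway, which make, carry and read retinoic acid, 8 fell and 1 rose. Among all 17639 tested genes, 3182 fell and 3842 rose, to be set beside the counts of this and the later lists. *Rbp4*, the carrier of retinol, fell from 14.7 ± 1.38 CPM to 9.18 ± 1.01 (log2 −0.68, adjusted p = 4.21e-14). *Dhrs3*, an enzyme that returns retinaldehyde to retinol, fell from 15.2 ± 1.85 to 10.3 ± 0.805 CPM (log2 −0.55, adjusted p = 5.28e-11). The retinaldehyde dehydrogenases *Aldh1a1* (log2 −0.28) and *Aldh1a2* (log2 −0.29) also fell, the latter at a low level (1.3 ± 0.318 against 1.05 ± 0.195 CPM). The one that rose, *Rdh10* (log2 0.086, adjusted p = 0.0293), oxidizes retinol and was named after its value was seen. This list holds *Rara*, *Rarg*, *Rxra* and *Rxrb* in common with the family list. Under library totals, 6 of its genes fell and 2 rose.

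Of 19 tested factors of striatal lineage, 7 rose and 3 fell, with a median log2 fold change of 0.061. Those named are *Egr3* at −0.32, an activity-induced factor, and the ganglionic eminence factors *Dlx5* at 0.23 (11.4 ± 1.32 against 13.3 ± 0.952 CPM) and *Zfp503* at 0.17 (13.8 ± 1.46 against 15.5 ± 1.36 CPM). *Dlx6*, named after its value was seen, fell (log2 −0.15, 19.8 ± 1.81 against 17.7 ± 1.16 CPM), and *Dlx1* and *Dlx2* were not called. Under library totals 10 rose and 2 fell.

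Markers of the cells that hold these factors moved too. All 10 projection neuron identity genes fell, with a median log2 fold change of −0.50, led by *Pde10a* (−0.79), *Arpp21* (−0.66), *Adcy5* (−0.57) and *Pde1b* (−0.53), signalling proteins of medium spiny neurons. Their summed level ran from 11600 to 13600 CPM in *Htt+/+* and from 8110 to 9630 CPM in *Htt Q111/+* mice. The changes of the 6 members that fell, −0.43 to −0.18, were smaller than this median. Of 6 tested indirect pathway markers, 5 fell, led by *Penk1* (−0.92), *Upb1* (−0.78), *Adora2a* (−0.71) and *Gpr6* (−0.56). Of 7 direct pathway markers, 3 fell (*Drd1a* at −0.49, *Chrm4* at −0.44 and *Sfxn1* at −0.29) and 2 rose (*Eya1* at 0.30 and *Tac1* at 0.13, the latter named after its value was seen).

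Some members are also made by other cells, whose markers are given here beside them. For *Isl1*, 0 of 5 cholinergic interneuron markers were called by limma after voom, 1 of them at an unadjusted p under 0.05 (*Slc5a7*, log2 −0.089), and their summed level was 77.5 to 108 CPM in *Htt+/+* and 78.8 to 107 CPM in *Htt Q111/+* mice. Among these markers, *Chat* was at log2 −0.029 and *Lhx8* at log2 0.040. *Slc5a7*, *Chat* and *Lhx8* were named after their values were seen. Whether cholinergic interneurons had a part in the rise of *Isl1* was not tested. For *Ikzf1*, 6 of 8 microglial markers fell, led by *Msr2* (−0.17), *Aif1* (−0.14), *P2ry12* (−0.12) and *Cx3cr1* (−0.11), but 2 of 8 under library totals, and the sums ran up to 541 CPM with a median of 491 in *Htt+/+* and from 426 to 500 CPM with a median of 465 in *Htt Q111/+* mice.

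For *Foxo1* and *Foxp1*, 7 of 8 endothelial markers fell, led by *Kdr* (−0.30), *Slco1a4* (−0.24), *Tek* (−0.24) and *Flt1* (−0.19). Their sums were 260 to 413 CPM in *Htt+/+* and 236 to 279 CPM in *Htt Q111/+* mice. For *Ebf1*, 4 of 8 pericyte and smooth muscle markers fell, led by *Tagln* (−0.49), *Abcc9* (−0.25), *Rgs5* (−0.24) and *Pdgfrb* (−0.14), with sums of 197 to 259 and 181 to 219 CPM. No marker list had a gene at 0 in every library. The part of these cells in the members' differences was not tested. Cortical markers, which report tissue carried over in dissection, were called in 2 of 8 (*Rorb* at −0.31 and *Cutl2* at 0.26), with sums of 22 to 87.3 CPM in *Htt+/+* and 23 to 91.6 CPM in *Htt Q111/+* mice. Without the 2 mice highest in cortical markers and the mouse highest in endothelial markers, 8 members were still called, with log2 fold changes of −0.41 for *Rxrg*, −0.36 for *Foxo1* and 0.36 for *Isl1*.

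**Figure D3:**
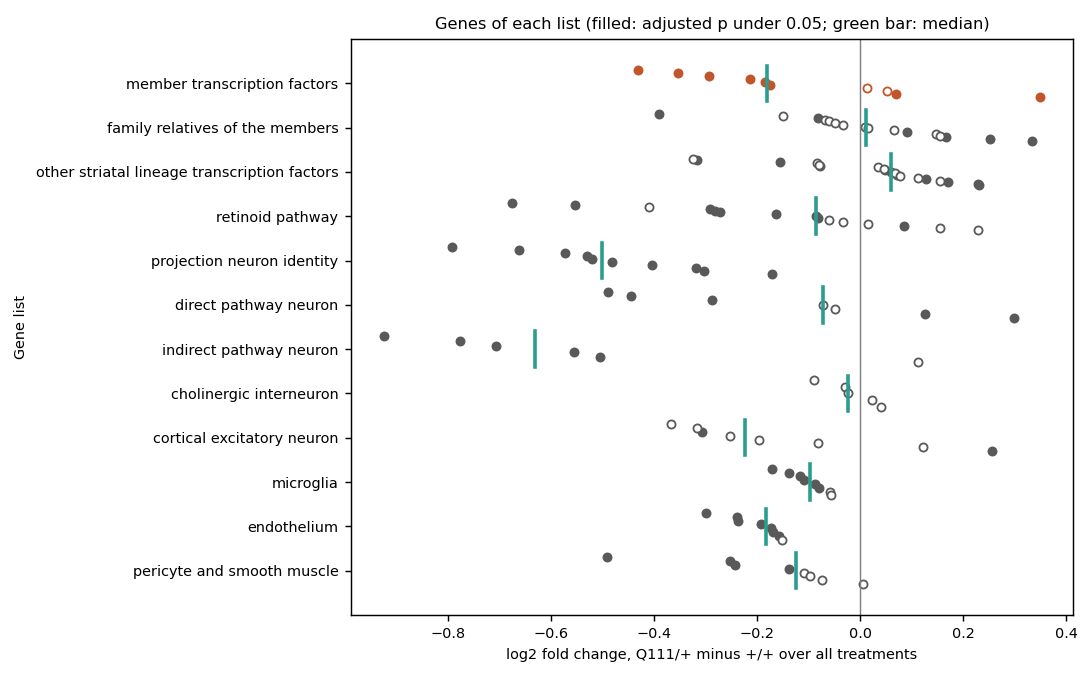
Log2 fold change of *Htt Q111/+* against *Htt+/+* mice over all treatments (horizontal axis) of every tested gene in the members' list (orange) and in 11 related lists (grey), with a green bar at each list's median; filled points had an adjusted p under 0.05. The members' median of −0.18 lies between that of the projection neuron identity genes (−0.50) and that of their family relatives (0.012), and *Isl1* at 0.35 stands to the right of every gene shown.

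The members were next compared between mice of the same group, to ask whether they rise and fall together apart from genotype and treatment. Log2 CPM (prior count 2) were taken relative to the group mean over the 35 mice, and 23 of 45 pairs of members correlated (permutation test within groups with 100000 resamples, two-sided, adjusted over 45 pairs), all 23 positively. The smallest Pearson r among them was 0.401, and 5.69% of all pairs of tested genes had an r at least as high. The 5 pairs with the largest r were *Rarb* with *Foxo1* (r = 0.817, rho = 0.81, adjusted p = 0.00045), *Bcl11b* with *Rxrg* (r = 0.652, rho = 0.661, adjusted p = 0.0018), *Foxp2* with *Foxo1* (r = 0.631, rho = 0.687, adjusted p = 0.0018), *Foxp1* with *Ebf1* (r = 0.614, rho = 0.564, adjusted p = 0.00236) and *Foxp1* with *Rxrg* (r = 0.601, rho = 0.553, adjusted p = 0.0075). The permutation p of *Rarb* with *Foxo1*, 1e-05, was the smallest the resamples can give. Without the 2 mice farthest from the median of the first gene, these r were 0.804, 0.606, 0.62, 0.523 and 0.419, and all 23 pairs kept their sign.

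*Isl1* and *Ikzf1* had no pair past the threshold, although *Isl1* with *Ikzf1* passed once lane means were removed (r = 0.507, permutation test, adjusted p = 0.00662). Both are low members (medians of 14.9 and 10.8 CPM in *Htt+/+* mice), and low counts carry more counting noise. *Ebf1*, at 10.2 CPM, had pairs past the threshold. What part counting noise had in any of these r was not tested, so a lack of correlation is not shown to belong to the genes themselves. The r of *Isl1* ran from −0.17 with *Ebf1* to 0.286 with *Ikzf1*, and was 0.0948 with *Rxrg*, 0.0773 with *Foxo1* and 0.039 with *Rarb*. *Foxp2*, which was slightly higher in *Htt Q111/+* mice, correlated positively with *Rarb* (r = 0.522) and *Foxo1*, which were lower there. With lane means removed as well, 22 pairs passed, 20 of them the same, and *Rarb* with *Foxo1* gave r = 0.806. With library totals in place of TMM, 14 pairs passed, and *Rarb* with *Foxo1* gave r = 0.803 (adjusted p = 0.00045). Both genes of a pair come from the same library, so they share its tissue content and depth.

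**Figure D4:**
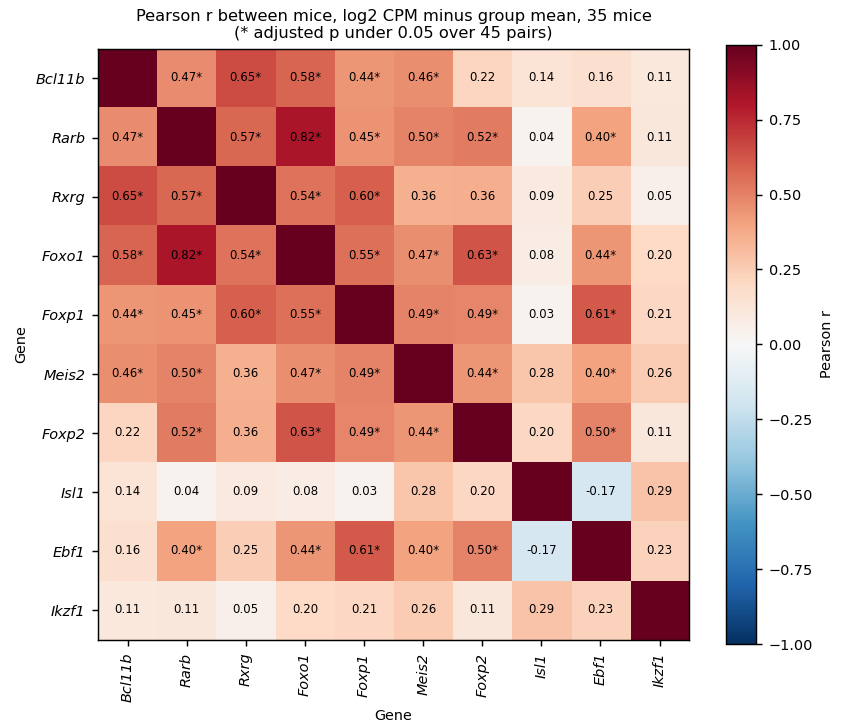
Pearson r between members over 35 mice, from log2 CPM minus the group mean, with the colour scale from −1 to 1 and a star where the permutation p adjusted over 45 pairs was under 0.05. Stars fill the block of *Bcl11b*, *Rarb*, *Rxrg*, *Foxo1*, *Foxp1*, *Meis2* and *Foxp2* except for *Foxp2* with *Bcl11b*, *Foxp2* with *Rxrg* and *Meis2* with *Rxrg*, while the *Isl1* and *Ikzf1* rows hold none.

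The last question is whether the treatments moved these transcripts. For *Htt* ASO against control ASO over both genotypes, 0 of 10 members were called by limma after voom, edgeR or DESeq2, against 0.935% of all genes, and 0 had an unadjusted p under 0.05. Their log2 differences ran from −0.024 (*Meis2*) to 0.069 (*Rxrg*), and the 95% intervals of all 10 lay between −0.12 and 0.17. For *Rxrg* the interval was −0.034 to 0.17, for *Foxo1* −0.057 to 0.085, for *Rarb* −0.046 to 0.080 and for *Isl1* −0.030 to 0.12. For each of these 4 genes the interval does not reach the size of its genotype effect.

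In *Htt Q111/+* mice alone, where a return toward the *Htt+/+* level would be looked for, 0 of 10 members were called (0.357% of all genes; 0 at an unadjusted p under 0.05). Median values on control ASO and *Htt* ASO in these mice were 120 and 124 CPM for *Foxo1*, 125 and 125 for *Rarb*, 277 and 283 for *Bcl11b*, and 19.1 and 19.5 for *Isl1*. *Rxrg* ran from 90.5 to 119 CPM (mean 108 ± 9.67, SD, n = 6) on control ASO and from 93.3 to 118 CPM (mean 107 ± 10.6, SD, n = 6) on *Htt* ASO, and the treatments overlapped for these genes. The log2 differences were −0.012 for *Rxrg* (95% interval −0.16 to 0.13), −0.016 for *Foxo1* (−0.11 to 0.083), −0.035 for *Rarb* (−0.12 to 0.053) and 0.041 for *Isl1* (−0.057 to 0.14).

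In *Htt+/+* mice alone, 0 of 10 were called (0.295% of all genes), with 1 at an unadjusted p under 0.05. This was *Rxrg*, at 154 ± 9.26 CPM (SD, n = 6) on *Htt* ASO and 139 ± 14.7 CPM (SD, n = 5) on control ASO (log2 0.15, adjusted p = 0.937 by limma after voom). For *Htt* ASO against saline over both genotypes, 0 of 10 were called (1.47% of all genes), with *Foxp1* (log2 0.10, adjusted p = 0.422 by limma after voom) and *Bcl11b* (log2 0.071, adjusted p = 0.439 by limma after voom) at an unadjusted p under 0.05. For control ASO against saline, 0 of 10 members and 0% of all genes were called by limma after voom, edgeR and DESeq2, while 1357 of all genes and 0 members had an unadjusted p under 0.05. The interaction of genotype with *Htt* ASO gave 0 calls by the 3 tools as well, with 713 of all genes and 0 members at an unadjusted p under 0.05. The comparisons with saline and with control ASO share mice.

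**Figure D5:**
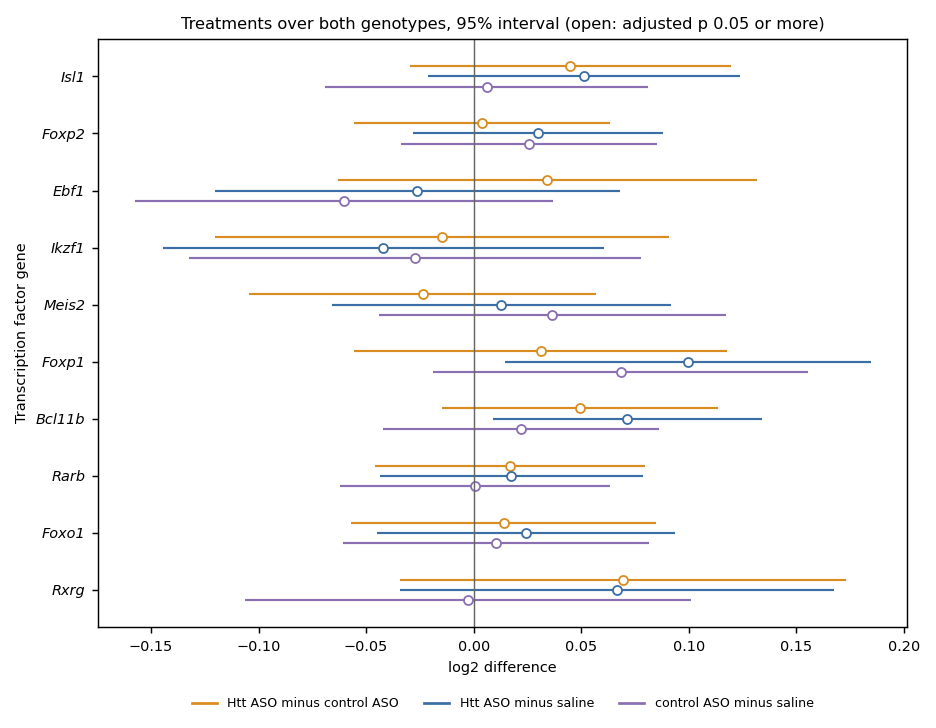
Log2 difference between treatments over both genotypes (horizontal axis) with its 95% interval for each gene, in the row order of the genotype plot; all points are open because none had an adjusted p under 0.05. Every point lies between −0.060 and 0.10, and the intervals of *Foxp1* and *Bcl11b* for *Htt* ASO minus saline are the only 2 that leave out 0.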

How the data were processed

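RNA from the hemistriatum of 35 mice was sequenced by the authors as paired reads from stranded mRNA libraries, aligned to the mouse transcriptome (MGSCv37, mm9) with Bowtie 0.12.9 and quantified with RSEM 1.1.18. The deposited values are expected counts per gene, in which RSEM divides a read that fits several genes; 55.6% of them are whole numbers. No replicate numbers were given in the labels, so mice were numbered in accession order within groups. The treatment labelled ASO1 was taken as *Htt* ASO.

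Tests used limma 3.58.1 and edgeR 4.0.16 under R 4.3.3. The filter filterByExpr kept 17639 of 22099 genes (minimum count 10, minimum total 15). TMM scaled the libraries, and limma was run after voom with a mean for each of the 6 groups (29 residual and 4.3 prior degrees of freedom), with Benjamini-Hochberg adjustment over all tested genes and a threshold of 0.05. Rounded expected counts went into the alternative tests, DESeq2 1.42.0 and the quasi-likelihood test of edgeR. Totals were 32200158 to 38641924 reads. The lowest members, near 10 CPM, carry more counting noise relative to their level than the others. Its part in their spread was not measured. The 10 members and the lists were chosen with earlier results of these data known. From each list, up to 4 genes are named, those called by genotype with the largest log2 fold change and a mean of at least 1 CPM, as are the 5 correlated pairs with the largest r and *Htt*. Some genes that this rule names are not reported here. The lists are family relatives, striatal lineage factors, the retinoid pathway, projection neurons of both pathways, cholinergic and other interneurons, cortical neurons, microglia, endothelium, pericytes, astrocytes and oligodendrocytes. Symbols were matched through RefSeq synonyms (*Penk* as *Penk1*, *Htt* as *Hdh*, *Cux2* as *Cutl2*, *Fcrls* as *Msr2*).

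Alternatives were library totals without TMM, no filter, a mean of 1 CPM, lane as a covariate, leaving out lane 7, the left hemistriatum mouse or each mouse, quality weights, and only the 2 groups compared. Summing the *Meis2* row with *Mrg1* and the *Ebf1* row with EBF was chosen after seeing the data. So was leaving out the 3 mice highest in cortical or endothelial markers. The fits were tested on simulated counts. Sequences came from RefSeq on GRCm38.p6 and lengths from GENCODE M21 on GRCm38, whose build differs from that of the counts.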

Additional observations from a re-analysis of the deposited data

Results flagged for a closer look

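Within each group of 5 or 6 mice, the mouse at either end was compared with the rest for each member, in 60 sets of values. In 3 of the 60 the gap was wider than Dixon's limit, and chance flags about 1 in 20 such groups, or 3 of 60. *Bcl11b* was 340 CPM in *Htt+/+* saline mouse 5, from lane 8, with the next mouse of its group at 313 CPM. *Ikzf1* was 12.5 CPM in *Htt+/+* *Htt* ASO mouse 1, from lane 3, with the next at 10.8 CPM. *Rarb* was 113 CPM in *Htt Q111/+* *Htt* ASO mouse 4, from lane 3, with the next lowest at 122 CPM. Without these mice in turn, the log2 fold change by genotype was −0.21 for *Bcl11b* (adjusted p = 3.75e-08 by limma after voom), 0.020 for *Ikzf1* (adjusted p = 0.743) and −0.29 for *Rarb* (adjusted p = 2.44e-11).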

How the results depend on the processing

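By genotype over all treatments, 8 members were called under each of the 11 alternatives and without any single mouse, and the 8 called members kept their direction throughout. The adjusted p of *Foxp2* stayed nearest the threshold, from 0.000243 to 0.0465 over the alternatives and up to 0.0483 without single mice. Counts without single mice were 6 to 7 in saline, 5 to 6 in control ASO, 6 to 7 in *Htt* ASO mice and 0 in each comparison of treatments. The sign turned only for differences that were not called: *Ikzf1* by genotype (−0.0028 to 0.027 without single mice), and, for *Htt* ASO against control ASO, *Foxp2* (−0.0066 to 0.017, and −0.014 without lane 7), *Ikzf1* (−0.038 to 0.0075) and *Foxo1* (−0.00057 to 0.034, and −0.014 without lane 7). The number of correlated pairs was 23 in all, 22 with lane means removed and 14 under library totals; the cause was not tested. Library totals shifted the median log2 fold change of all genes by 0.039. No paired analysis was possible because the labels carry no replicate numbers to pair mice by. Mice of different groups do share lanes, which entered as a covariate and within lanes, and some share the start of a mouse identifier, whose meaning the labels do not give and which was not used.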

Other observations

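The remaining lists were lower or mixed by genotype. Of 8 tested markers of other interneurons, 2 fell, *Nos1* (log2 −0.30, from 31.4 ± 4.30 to 25.9 ± 5.25 CPM, SD, n = 17 and 18) and *Th* (log2 −0.22), and 0 rose. Of 6 astrocyte markers 3 fell, namely *Slc1a2* (log2 −0.73, adjusted p = 0.0237 by limma after voom), *Aqp4* (−0.12) and *Slc1a3* (−0.11). *Slc1a2* varied widely, at 166 ± 75.6 CPM in *Htt+/+* and 103 ± 57.2 CPM in *Htt Q111/+* mice (SD, n = 17 and 18). Under library totals 2 astrocyte markers fell, and *Aqp4* was not called (adjusted p = 0.148 by limma after voom). Of 6 oligodendrocyte markers 3 fell, among them *Mobp* (−0.19) and *Cldn11* (−0.18).

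A row listed as EBF stood beside *Ebf1* at a much lower level. It was 0 to 0.517 CPM in *Htt+/+* mice on saline and 0.246 to 1.24 CPM on *Htt* ASO, and 0 to 0.451 and 0.246 to 0.583 CPM in *Htt Q111/+* mice. On control ASO it was 0 to 0.673 CPM in *Htt+/+* and 0.236 to 0.794 CPM in *Htt Q111/+* mice, a range like that on *Htt* ASO. It was called for *Htt* ASO against saline (adjusted p = 0.0475 by limma after voom), but not for control ASO against saline (adjusted p = 0.588) or *Htt* ASO against control ASO (adjusted p = 0.967). *Ebf1* itself was not called for *Htt* ASO against saline (log2 −0.026, adjusted p = 0.916). Whether its reads come from *Ebf1* was not tested.

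The members differed in how far the rest of the transcriptome followed them between mice of the same group. For *Foxp2*, 10.4% of all tested genes had an r of at least 0.401 and 12.8% an r of at most −0.401, against 2.15% and 2.37% for *Isl1* and 1.75% and 1.37% for *Ikzf1*. For *Ebf1* the shares were 5.37% and 4.34%. *Isl1*, *Ikzf1* and *Ebf1* have far fewer reads than *Foxp2*, and the part of counting noise in these shares was not tested.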
